A study of Homo sapiens with 6 samples.

Results

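The genes described here are those that build, load and regulate the major histocompatibility complex (MHC) molecules of the mouse, measured by mRNA sequencing in BaF3-T315I cells. They were chosen by name, as every protein-coding gene listed in the table used here whose symbol begins with H2-, together with 14 further genes of antigen presentation (B2m, Tap1, Tap2, Tapbp, Erap1, Nlrc5, Ciita, Cd74, Ifi30, Psmb8, Psmb9, Psmb10, Psme1 and Psme2). This gave 36 genes of the 22413 listed, 22 with an H2- symbol and 14 named singly.

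BaF3-T315I is a murine pro-B line, dependent on interleukin-3 before transfection, that was stably transfected with the T315I-mutated form of the BCR-ABL kinase. The control group was 3 samples of these cells given the control treatment, and the I13 group was 3 samples of the same cells exposed to 1.1 µM of I13, a histone deacetylase inhibitor, for 48 h. Both groups carry the BCR-ABL transgene, and the time of the control treatment is not stated. The sample labels name the organism as human, whereas the study calls the cells murine and every gene of the table has a mouse identifier, so the values were read as mouse genes. The labels do not say whether the samples of a group are separate cultures. The study's methods describe its results in general as coming from independent experiments, without naming the sequenced samples. The p-values measure the spread between these samples, which may be in part technical. Each library held between 16762119 and 17722950 mapped fragments.

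MHC class I molecules are made of a polymorphic heavy chain (H2-K1 and H2-D1 in the mouse) and the invariant light chain β2-microglobulin, the product of B2m, and they show peptides from the cytosol to CD8 T cells. Those peptides are cut by the proteasome, in which the interferon-inducible subunits Psmb8, Psmb9 and Psmb10 can replace the constitutive catalytic ones, are pumped into the endoplasmic reticulum by TAP, trimmed by Erap1 and loaded with the help of tapasin. MHC class II molecules are held by the invariant chain Cd74 until that chain is degraded in endosomes, and H2-DM then exchanges its remnant for antigenic peptides under the control of H2-O. Nlrc5 is the transactivator of the class I genes and Ciita that of the class II genes. Class II is a feature of B cells, dendritic cells and macrophages, while class I is present on nearly all nucleated cells.

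Expression was given as FPKM, fragments scaled to the length of the gene and to the depth of the library, which allows levels to be set side by side between genes, except where fragments shared by near-identical genes or pseudogenes were counted in a way that is not stated. A gene was tested when its mean over the 6 samples reached 0.5 FPKM. Of the 36 genes, 25 were tested and 11 were too low, with mean FPKM from 0.00477 to 0.304. A gene was called when limma gave an adjusted p below 0.05 and a log2 fold change of at least 0.58 in either direction on the log2(FPKM + 0.1) scale, a scale that understates the change of low genes.

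After I13, the smallest unadjusted p-values among the higher genes were those of B2m, the class I light chain, with a mean of 1060 ± 350 FPKM beside 547 ± 185 in control, and of H2-Ob, a chain of the class II inhibitor H2-O, with 4.83 ± 0.679 FPKM beside 2.09 ± 0.397 (SD, n = 3 each). Tap2, a subunit of the peptide transporter, had a lower mean after I13, 21.8 ± 1.4 FPKM beside 27.3 ± 0.538 (SD, n = 3 each). None of these was called without the replicate number as a block, and B2m and H2-Ob were called with it. Without the block, 0 of the 25 antigen presentation genes were called, where 0.0411% of the 12163 genes tested were called in either direction. At an unadjusted p below 0.05 there were 7, which is 28% of the 25 beside 18.6% of all genes tested. Of these, 5 were higher after I13 (H2-Ob, B2m, H2-DMa, H2-D1 and Cd74), beside 7.79% of all genes, and 2 lower (Tap2 and Psmb10), beside 10.8%. With voom on the recovered fragment counts 0 of the 25 were called, beside 0.0493% of all genes tested, with 5 higher and 2 lower at an unadjusted p below 0.05 (8.65% and 10.7% of all genes). A log2 fold change above 0 was found in 17 of the 25 and below 0 in 8, beside 49.2% above 0 among all genes tested. The median log2 fold change was 0.21 over the 25 genes and -0.0053 over all genes tested. The groups did not overlap for 6 of the 25 genes, which is 24% beside 25.2% of all genes tested. H2-K1, Cd74, H2-DMa and H2-Ob were the 4 of these that were higher after I13 (9.82% of all genes), and Tap2 and Psmb10 the 2 that were lower (15.4%). A log2 fold change of at least 0.58 in size was found for 4 of the 25, all higher after I13, beside 9.41% of all genes in either direction. The I13 sample was the higher one in all 3 pairs of the same replicate number for 10 of the 25, beside 24.1% of all genes tested.

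The control and I13 samples with the same replicate number tended to deviate from their group means in the same direction, and the fit was therefore also made with the replicate number as a block. With the replicate block 2 of the 25 genes were called, B2m and H2-Ob, both higher after I13, beside 1.36% of all genes tested called in that direction. None was called lower, where 0.526% of all genes tested were. With voom and the replicate block, B2m, H2-Ob, H2-T23 and Cd74 were called higher, 4 of 25 beside 3.08% of all genes tested, and none lower, beside 1.04%. Both calls of the blocked fit were lost when the pair of replicate 2 or of replicate 3 was left out. In each of these fits 0 of all 12163 genes tested were called, so the loss was not particular to B2m and H2-Ob. Without the pair of replicate 1, B2m and Cd74 were called higher and H2-Ob was not called, where 78 of the 12163 genes tested were called higher.

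**Figure D1:**
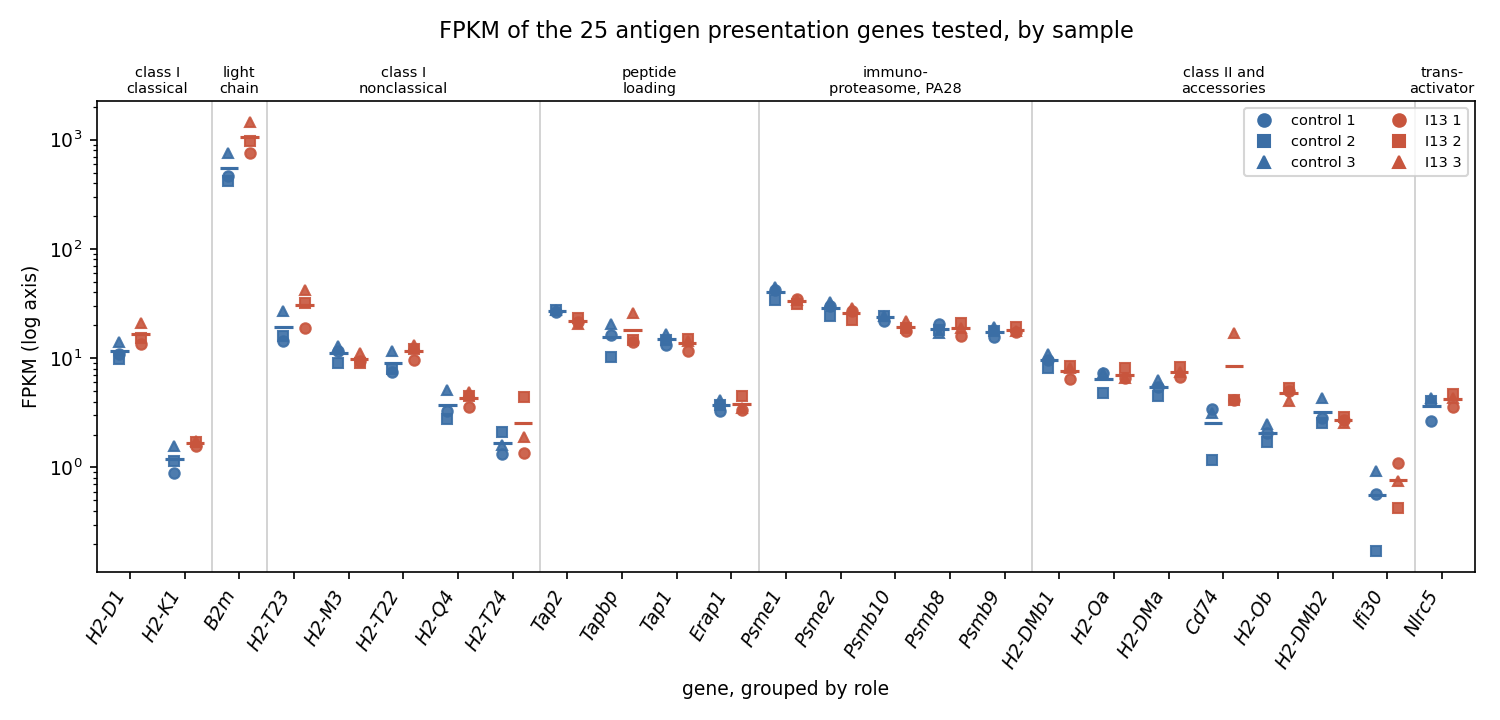
FPKM (log axis) of the 25 antigen presentation genes tested in each control sample (blue) and each I13 sample (red), with the symbol shape giving the replicate number and a dash the mean of the 3 samples. B2m lies far above the other genes in every sample, with 414 to 1444 FPKM, and the I13 and control symbols of the proteasome and peptide loading genes mostly lie side by side.

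**Figure D2:**
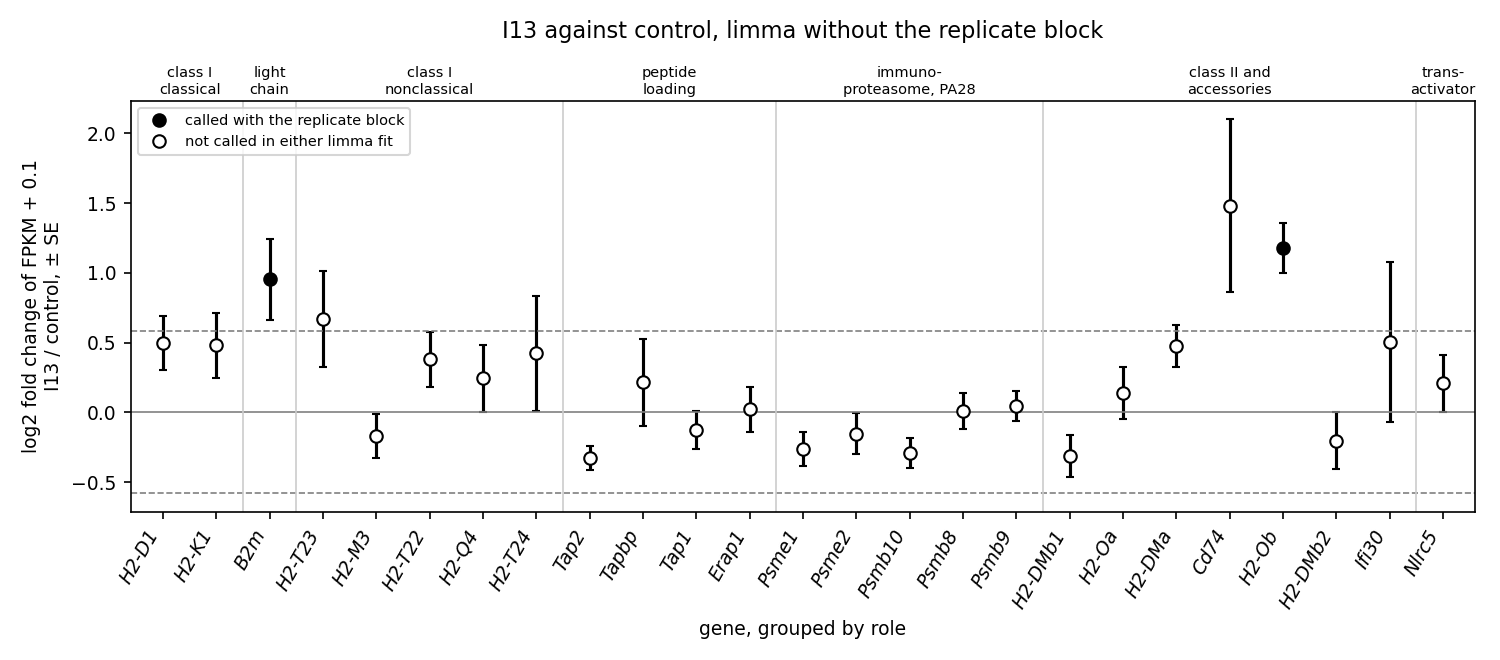
Log2 fold change of I13 against control on the FPKM + 0.1 scale (vertical axis) with its standard error for the 25 genes tested, from limma without the replicate block, and with dashed lines at 0.58 in both directions. The 4 genes beyond the upper line are B2m, H2-T23, Cd74 and H2-Ob, no gene lies beyond the lower line, and filled circles mark B2m and H2-Ob, the genes called with the replicate block.

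Of the 17 class I chain genes listed, 8 were tested, 7 of them had a log2 fold change above 0 (49.2% of all genes tested), and 6 were higher after I13 in all 3 pairs (24.1%). B2m, the light chain, was the most abundant antigen presentation gene by far. Its level was 469, 414 and 759 FPKM in control samples 1, 2 and 3 and 758, 977 and 1444 FPKM in I13 samples 1, 2 and 3. I13 sample 1 and control sample 3 were nearly equal, and the groups overlapped by that pair of samples alone, while within each pair of the same number the I13 sample was higher. The mean was 547 ± 185 FPKM in control and 1060 ± 350 FPKM after I13 (SD, n = 3 each). The ratio of I13 to control within pairs was 1.62, 2.36 and 1.90. The log2 fold change was 0.95 ± 0.29 (SE, limma adjusted p = 0.165), and with the replicate block B2m rose with an adjusted p of 0.0361 from limma. Over all alternatives tried the adjusted p of B2m from limma ran from 0.00156 to 0.370.

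The classical heavy chains were far less abundant than their light chain. H2-D1, one of the classical peptide-binding chains, was at 10.9, 9.87 and 14.1 FPKM in control and at 13.5, 15.2 and 20.9 FPKM after I13. Only I13 sample 1 fell within the range of the controls. For H2-D1 the log2 fold change was 0.50 ± 0.20 (SE, limma adjusted p = 0.240, 0.0555 with the replicate block and 0.0162 to 0.460 over all alternatives). H2-K1, the other classical chain, was at 0.887, 1.15 and 1.57 FPKM in control and at 1.59, 1.72 and 1.73 FPKM after I13, so that the groups did not overlap, although the highest control and the lowest I13 sample were close. Its log2 fold change was 0.48 ± 0.23 (SE, limma adjusted p = 0.315), or 0.30 without control replicate 1. H2-K1 was thus listed at a small part of the H2-D1 level in every sample. The heavy chain genes are close copies of each other and differ between mouse strains. How fragments that match several of them were counted is not stated, and their levels, that of H2-K1 included, are uncertain to that extent.

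Of the 14 nonclassical class I genes listed, 5 were tested, and 4 of these had a log2 fold change above 0. Without the block, 0 of the 5 had an unadjusted p below 0.05. H2-T23, which encodes Qa-1, a ligand of the inhibitory CD94-NKG2A receptor of natural killer cells, was the most abundant of them, at 14.3, 16.1 and 27.3 FPKM in control and 18.7, 32.0 and 42.3 FPKM after I13. Its I13 sample was the higher one in each pair, and the groups overlapped through control sample 3 and I13 sample 1, the same samples as for B2m. H2-T23 had a log2 fold change of 0.67 ± 0.34 (SE, limma adjusted p = 0.338, 0.0551 with the replicate block and 0.00925 to 0.610 over all alternatives). Without I13 replicate 3 the log2 fold change of H2-T23 was 0.41, and that of H2-D1 was 0.32.

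H2-T22, a ligand of some γδ T cell receptors, was at 7.52, 8.01 and 11.6 FPKM in control and 9.57, 12.1 and 13.3 FPKM after I13, a log2 fold change of 0.38 ± 0.20 (SE, limma adjusted p = 0.339). H2-Q4 and H2-T24 had log2 fold changes of 0.24 and 0.42. That of H2-Q4 was 0.06 without control replicate 2 and 0.49 without control replicate 3. The value for H2-T24 came mainly from I13 sample 2, at 4.37 FPKM, where the other 5 samples lay between 1.32 and 2.11 FPKM. H2-M3, which presents N-formylated peptides, was the exception of the nonclassical genes tested. It was at 11.6, 8.99 and 12.9 FPKM in control and 9.43, 9.04 and 11.0 FPKM after I13, a log2 fold change of -0.17 ± 0.15 (SE, limma adjusted p = 0.589), or -0.06 without control replicate 3 and -0.32 without control replicate 2.

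The 7 heavy chain genes tested summed to 49.7, 49.0 and 74.2 FPKM in control and to 57.7, 79.0 and 96.0 FPKM after I13, and the groups overlapped (unpaired exact permutation test of 3 against 3, two-sided, p = 0.2), while the I13 sample was higher in each of the 3 pairs. B2m per summed heavy chain FPKM was 9.42, 8.46 and 10.2 in control and 13.1, 12.4 and 15.0 after I13. This ratio, which was chosen after its values were seen, did not overlap between the groups. Its level is uncertain, because how fragments shared by the heavy chain genes were counted is not stated. Its mean was 9.37 ± 0.889 in control and 13.5 ± 1.38 after I13 (SD, n = 3 each), and the exact permutation test gave two-sided p = 0.1, the smallest value that 3 against 3 samples allow.

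**Figure D3:**
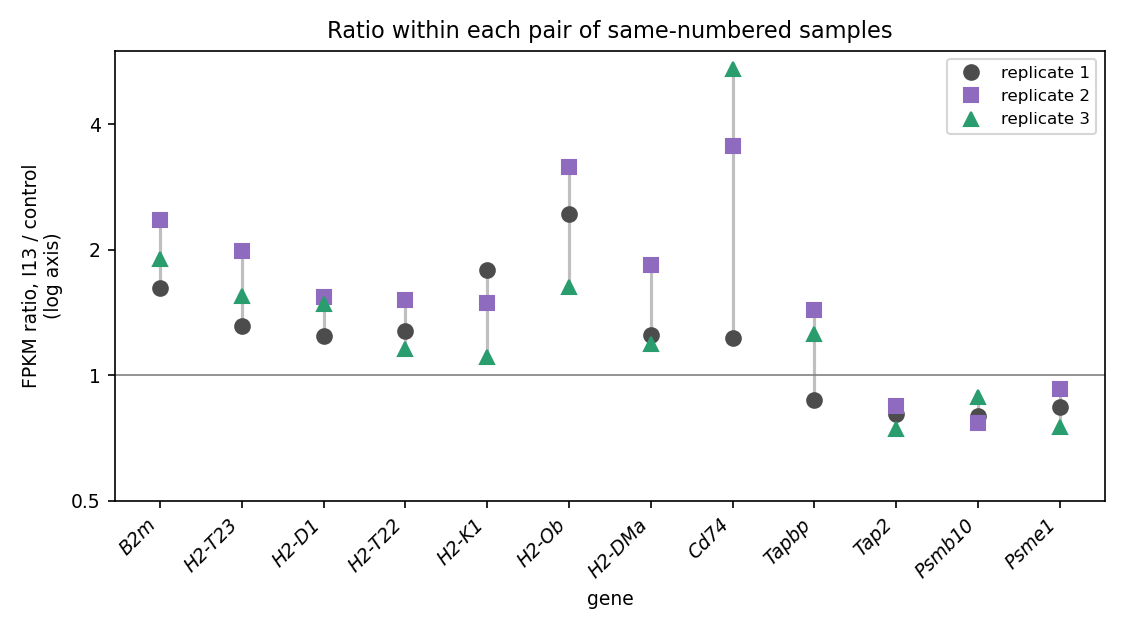
Ratio of FPKM in the I13 sample to that in the control sample of the same replicate number (log axis) for 12 antigen presentation genes, with 1 symbol per replicate number and a line at 1. All 3 ratios of B2m lie between 1.62 and 2.36 and all 3 of Tap2, Psmb10 and Psme1 lie below 1, while those of Cd74 spread from 1.23 to 5.43 and those of Tapbp lie on both sides of 1.

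Of the 4 genes of peptide supply and loading, all tested, 2 had a log2 fold change above 0 and 2 below, and 0 were called with or without the block. Tap2, a subunit of the peptide transporter, was at 26.7, 27.5 and 27.7 FPKM in control and at 21.6, 23.3 and 20.5 FPKM after I13. The controls were tightly grouped and every I13 sample lay below them. For Tap2 the log2 fold change was -0.33 ± 0.09 (SE, limma adjusted p = 0.137, 0.0732 with the replicate block and 0.0342 to 0.365 over all alternatives), below the fold change threshold in every fit. Tap1, the other subunit, was at 13.2, 14.8 and 16.5 FPKM in control and 11.5, 15.0 and 14.4 FPKM after I13, with overlap and a log2 fold change of -0.12 ± 0.14 (SE, limma adjusted p = 0.664). With 1 sample left out the Tap1 value ran from -0.2037 (without control replicate 1) to -0.0071 (without I13 replicate 1). Whether Tap1 and Tap2 differed in their response was not tested.

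Tapbp, which encodes tapasin, the bridge between TAP and the empty class I molecule, varied widely between samples. It was at 16.1, 10.2 and 20.4 FPKM in control and 14.1, 14.6 and 25.7 FPKM after I13, a log2 fold change of 0.22 ± 0.31 (SE, limma adjusted p = 0.742). Its sign turned when control replicate 2 or I13 replicate 3 was left out. Erap1, the trimming aminopeptidase of the endoplasmic reticulum, was at 3.27, 3.76 and 4.12 FPKM in control and 3.34, 4.52 and 3.52 FPKM after I13, a log2 fold change of 0.02 ± 0.16 (SE, limma adjusted p = 0.959), which was -0.02 with quantile normalization. The general chaperones that fold and load class I were taken from a list of related pathway genes. Of its 6 loading chaperones, all tested, 5 had a log2 fold change above 0 and 0 were called. Calr (calreticulin), Hspa5 (BiP) and Pdia3 (ERp57) had log2 fold changes of 0.52, 0.52 and 0.33 and an unadjusted p below 0.05, 3 of 6 beside 7.79% of all genes tested in that direction. Without I13 replicate 3 that of Calr was 0.32. Calr was called in the blocked fit without the pair of replicate 1, where 78 of the 12163 genes tested were called higher.

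The immunoproteasome subunits were present in untreated cells and gave 0 calls after I13. Psmb8 was at 20.5, 18.0 and 17.2 FPKM in control and at 16.0, 21.1 and 19.0 FPKM after I13, a log2 fold change of 0.01 ± 0.13 (SE, limma adjusted p = 0.982). Psmb9 was at 15.5, 17.6 and 19.2 FPKM in control and 17.2, 19.1 and 17.6 FPKM after I13, a log2 fold change of 0.05 ± 0.11 (SE, limma adjusted p = 0.847). For both genes the groups overlapped nearly completely. Psmb10 differed from them in its values, at 22.1, 24.4 and 24.5 FPKM in control and 17.7, 18.7 and 21.7 FPKM after I13, without overlap. Psmb10 had a log2 fold change of -0.29 ± 0.11 (SE, limma adjusted p = 0.214), and the difference between Psmb10 and the other subunits was not tested.

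Psme1 and Psme2 encode the α and β subunits of PA28, the interferon-inducible cap that opens the proteasome. Psme1 was at 41.8, 34.3 and 45.3 FPKM in control and 35.0, 31.7 and 34.0 FPKM after I13, a log2 fold change of -0.26 ± 0.12 (SE, limma adjusted p = 0.296). Psme2 was at 30.1, 24.1 and 32.8 FPKM in control and 27.2, 22.3 and 28.7 FPKM after I13, a log2 fold change of -0.15 ± 0.15 (SE, limma adjusted p = 0.616), or -0.04 without I13 replicate 2 and -0.28 without control replicate 2. Both overlapped between the groups, yet were lower in the I13 sample of each of the 3 pairs. Psmb10 and Tap2 were the other genes among the 25 that were lower in each pair, which makes 4 of 25 beside 27.3% of all genes tested.

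The constitutive catalytic subunits Psmb5, Psmb6 and Psmb7, which the immunoproteasome subunits replace, give the reference for these levels. Psmb5, Psmb6 and Psmb7 summed to 186, 173 and 165 FPKM in control and 149, 142 and 151 FPKM after I13. Psmb8, Psmb9 and Psmb10 summed to 58.1, 60.1 and 60.9 FPKM in control and 50.9, 59.0 and 58.3 FPKM after I13. The share of the immunoproteasome subunits in the FPKM of all 6 was 23.8%, 25.7% and 26.9% in control and 25.5%, 29.4% and 27.9% after I13. The means were 25.5% ± 1.58 and 27.6% ± 1.97 (SD, n = 3 each), a difference of 2.09 percentage points with overlapping groups (unpaired exact permutation test, two-sided, p = 0.3, where 0.1 is the smallest value possible). The share was higher in the I13 sample of each of the 3 pairs. The constitutive sum did not overlap between the groups, with 175 ± 10.4 FPKM in control and 147 ± 4.76 FPKM after I13 (exact permutation test, two-sided, p = 0.1, the smallest value possible). All 6 constitutive proteasome genes of the related pathway list had a log2 fold change below 0, from -0.26 to -0.05, and 0 were called. At an unadjusted p below 0.05 there were 2, Psmb5 and Psmb6, both lower, beside 10.8% of all genes tested.

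**Figure D4:**
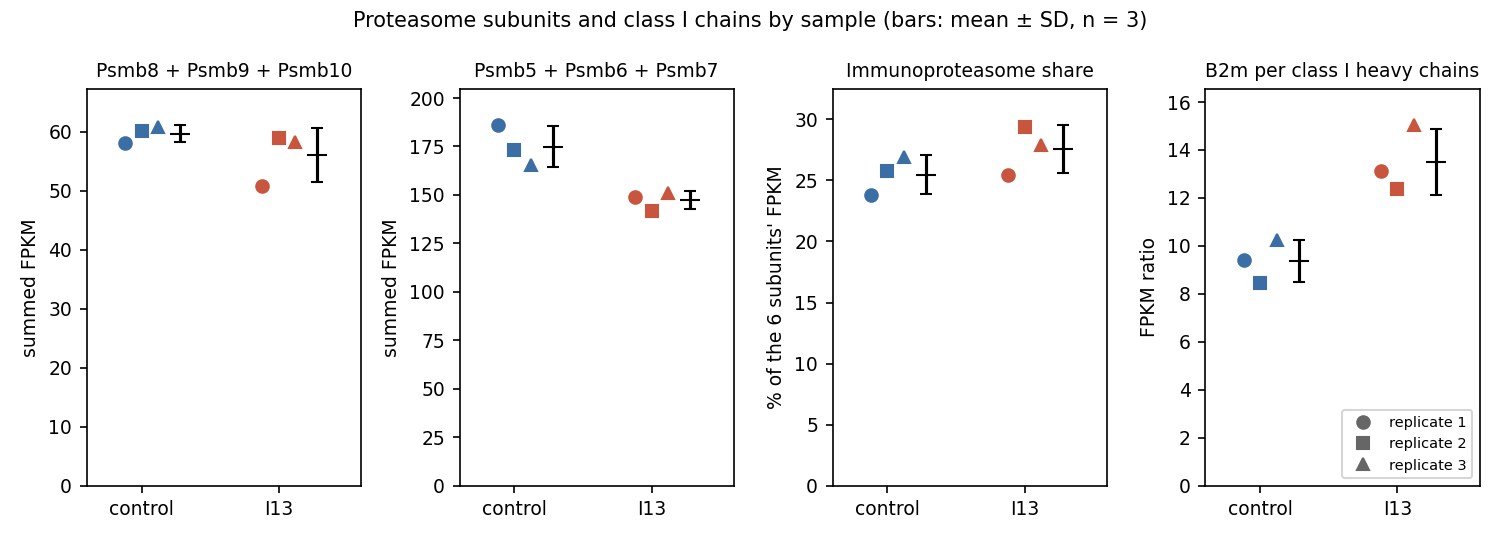
Summed FPKM of the immunoproteasome subunits, summed FPKM of the constitutive subunits, the immunoproteasome share in percent, and B2m per summed class I heavy chain FPKM in each sample, with a bar for the mean and SD (n = 3 per group) and all axes starting at 0. The constitutive sum is lower and the B2m ratio higher in every I13 sample than in any control sample, while the share and the immunoproteasome sum overlap. The level of the B2m ratio is uncertain, as are those of the heavy chains.

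Of the 8 class II and accessory genes, 7 were tested, none above 17.1 FPKM in any sample, and 5 had a log2 fold change above 0. Cd74, the invariant chain, had the highest log2 fold change among the 25, at 3.40, 1.17 and 3.14 FPKM in control and 4.19, 4.15 and 17.1 FPKM after I13. I13 sample 3 stood far above the other 5 samples, and the remaining I13 samples lay only a little above the highest control. Cd74 had a log2 fold change of 1.48 ± 0.62 (SE, limma adjusted p = 0.261, 0.0877 with the replicate block and 0.0202 to 0.434 over all alternatives), and it was 0.81 without I13 replicate 3. H2-Eb1, the class II β chain of the E isotype, was too low to be tested, with 0, 1 and 0 fragments in control samples 1, 2 and 3 and 10, 12 and 4 in I13 samples 1, 2 and 3. The totals were 1 and 26 fragments, a ratio of I13 to control of 26.5 (95% exact interval 4.36 to 1088, for counting error only). In the fit without a filter on low values, H2-Eb1 had an adjusted p of 0.141 from limma. The partner chains of the A isotype, H2-Aa and H2-Ab1, and H2-Ke6 are not among the 36 genes and were not analysed here, so nothing can be said of their expression.

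The 5 genes of H2-DM and H2-O, which edit the class II peptide, had log2 fold changes of both signs, 3 above 0 and 2 below. H2-Ob, the β chain of the H2-DM inhibitor H2-O, was at 2.06, 1.71 and 2.50 FPKM in control and 5.02, 5.39 and 4.08 FPKM after I13. The groups did not overlap, and the lowest I13 sample was well above the highest control. For H2-Ob the log2 fold change was 1.18 ± 0.18 (SE, limma adjusted p = 0.0860), the lowest adjusted p of the 25 genes. With the replicate block H2-Ob rose with an adjusted p of 0.0478 from limma, and over all alternatives it ran from 0.00808 to 0.306. H2-Oa, its α chain, was at 7.30, 4.83 and 7.30 FPKM in control and 6.56, 8.13 and 6.52 FPKM after I13, a log2 fold change of 0.14 ± 0.19 (SE, limma adjusted p = 0.717).

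H2-DMa, the α chain of the peptide exchanger H2-DM, was at 5.40, 4.53 and 6.26 FPKM in control and at 6.74, 8.33 and 7.45 FPKM after I13, without overlap. Its log2 fold change was 0.48 ± 0.15 (SE, limma adjusted p = 0.168). H2-DMb1, a β chain of the same exchanger, went the other way in its values, at 9.73, 8.17 and 10.8 FPKM in control and 6.50, 8.48 and 8.12 FPKM after I13, a log2 fold change of -0.31 ± 0.15 (SE, limma adjusted p = 0.313), or -0.195 without I13 replicate 1. H2-DMb2, a close copy of H2-DMb1, had a log2 fold change of -0.20, which turned to 0.02 without control replicate 3, and how fragments shared by the copies were counted is not stated. Ifi30, a thiol reductase of the endosome that is not annotated as protein coding in the table, was near the filter. It was at 0.575, 0.173 and 0.926 FPKM in control and 1.10, 0.426 and 0.757 FPKM after I13 (10, 3 and 16 fragments against 19, 7 and 13), a log2 fold change of 0.50 ± 0.57 (SE, limma adjusted p = 0.672), or -0.03 without control replicate 2.

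Of the transactivators, Nlrc5 was tested and Ciita was near the limit of detection. Nlrc5 was at 2.66, 4.03 and 4.31 FPKM in control and 3.58, 4.66 and 4.35 FPKM after I13, a log2 fold change of 0.21 ± 0.20 (SE, limma adjusted p = 0.613), or 0.0009 without control replicate 1. It was higher after I13 in each pair, but hardly so in the pair of replicate 3. Ciita had 5, 1 and 3 fragments in control and 3, 2 and 1 after I13, 9 and 6 in all, so that a difference was not detectable at this depth. Other genes of class I and class II transcription were taken from the related pathway list. Of 15 tested, 4 had a log2 fold change above 0 and 11 below, 0 were called, and none had an unadjusted p below 0.05. Irf1, an interferon-induced activator of class I genes, had a log2 fold change of -0.29 ± 0.24 (SE, limma adjusted p = 0.552), with -0.55 to -0.11 over the alternatives. Rfx5, a subunit of the factor that binds the promoters of both classes, had one of -0.29 ± 0.16 (SE, limma adjusted p = 0.364), with -0.42 to -0.15.

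The other 9 genes under the filter were nonclassical class I genes. H2-Q1 had 7, 6 and 14 fragments in control and 22, 14 and 28 after I13, 27 and 64 in all, a ratio of I13 to control of 2.42 (95% exact interval 1.52 to 3.95, counting error only). Its groups touched at 14 fragments, and in the fit without a filter its adjusted p was 0.368 from limma. H2-M5 went the other way, with 10, 11 and 11 fragments in control and 4, 2 and 4 after I13, a ratio of control to I13 of 3.13 (95% exact interval 1.50 to 7.15) and an adjusted p of 0.206 from limma without a filter. H2-Q7 had 14 fragments in each group. The remaining 6, H2-T3, H2-M10.2, H2-M10.6, H2-Q2, H2-Q6 and H2-Q10, had at most 8 fragments in any group.

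The whole list of related pathway genes, chosen with earlier results of these data known, held 64 symbols. Of these, 50 were in the table and 45 were tested, with 25 above and 20 below 0 in log2 fold change. Without the block 0 of the 45 were called, beside 0.0411% of all genes tested, and voom without the block called 1, Lgmn, beside 0.0493%. At an unadjusted p below 0.05 there were 10, which is 22.2% of the 45 beside 18.6% of all genes tested, with 8 higher (7.79% of all genes) and 2 lower (10.8%). With the replicate block 3 were called higher, beside 1.36% of all genes tested. These were Lgmn, Ctsb and Ctsd, the endosomal proteases legumain, cathepsin B and cathepsin D. All 3 calls of the blocked fit were lost when the pair of replicate 2 or of replicate 3 was left out, where 0 of all genes tested were called. All 5 endosomal processing genes tested had a log2 fold change above 0 (49.2% of all genes tested) and were higher after I13 in each pair (24.1%). Because of how the list was chosen, these shares only describe it and give no independent support. Ctss, among the 5, passed the filter only through the I13 group, so its direction was favoured by the filter.

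Lgmn, which starts the cleavage of some antigens and of the invariant chain, was at 57.9, 70.8 and 83.8 FPKM in control and 172, 253 and 208 FPKM after I13. Every I13 sample was far above every control, and the log2 fold change of Lgmn was 1.57 ± 0.18 (SE, limma adjusted p = 0.0860, 0.0144 with the replicate block and 0.000197 to 0.262 over all alternatives). Ctss, the protease that removes the last part of Cd74 in professional antigen-presenting cells, was low, at 0.125, 0.0418 and 0.585 FPKM in control and 0.501, 0.395 and 1.47 FPKM after I13. Its log2 fold change was 1.47 ± 0.75 (SE, limma adjusted p = 0.333). Over all alternatives the value for Ctss ran from 0.49 to 2.12 and its adjusted p from limma from 0.0452 to 0.546. Ctss was called in 1 alternative, voom with the replicate block. Its mean was 0.250 FPKM in control and 0.790 FPKM after I13, so it reached the filter of 0.5 FPKM only through the I13 group. The filter therefore favoured a higher value after I13, and no conclusion is drawn from the change or call of Ctss. Ctsb and Ctsd had log2 fold changes of 0.91 and 0.89 and adjusted p-values of 0.281 and 0.354 from limma, or 0.0325 and 0.0384 with the replicate block. Over all alternatives their adjusted p from limma ran from 0.00145 to 0.498 for Ctsb and from 0.00271 to 0.596 for Ctsd. The log2 fold change ran from 0.55 to 1.27 for Ctsb and from 0.41 to 1.28 for Ctsd, in both cases lowest without I13 replicate 3 and highest without control replicate 3.

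Of the other groups of that list, 8 genes of interferon signalling were tested. These were the receptor chains, the kinases Jak1, Jak2 and Tyk2 and the inhibitor Socs1. A log2 fold change above 0 was found for 6 of the 8, beside 49.2% of all genes tested. Tyk2 was at -0.07 (-0.157 to 0.0037 over the alternatives) and Socs1 at 0.55 (-0.035 to 1.147), so the sign of each turned. The sign also turned for the receptor chains Ifnar1 (-0.278 to 0.00097) and Ifngr2 (-0.171 to 0.396). Jak1 and Jak2 had log2 fold changes of 0.42 and 0.37 and an unadjusted p below 0.05 from limma, without being called. This is 2 of 8 beside 7.79% of all genes tested in that direction. Mr1, which presents microbial vitamin metabolites, had a log2 fold change of 0.87 ± 0.19 (SE, limma adjusted p = 0.113, 0.0591 with the replicate block and 0.00980 to 0.333 over all alternatives), and Mr1 was called in 1 alternative, voom with the replicate block. Icosl, a costimulatory ligand, and Cd274 and Pdcd1lg2, the ligands of the inhibitory receptor PD-1, were the 3 genes of T cell costimulation or inhibition tested. All had log2 fold changes above 0 (49.2% of all genes tested), from 0.15 to 0.33, and 0 were called. Over the alternatives the sign turned for 2 of them, Icosl (-0.02 to 0.26) and Pdcd1lg2 (-0.05 to 0.33), and Cd274 ran from 0.11 to 0.56. The single natural killer receptor ligand tested, Ulbp1, had a log2 fold change of 0.32 ± 0.24 (SE, limma adjusted p = 0.502), with 0.08 to 0.71 over the alternatives.

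The cell type was compared with marker genes, since class II genes belong to several kinds of cell. Of 12 pro-B markers, 9 were in the table and 4 reached a mean of 0.5 FPKM, Cd79a, Cd79b, Ptprc and Il3ra, the most abundant being Cd79a at a mean of 23.4 FPKM. The defining B lineage genes Pax5, Ebf1 and Il7r were at or near 0 in every sample, so the data bear out only part of a pro-B identity. Of 6 dendritic cell markers, 5 were in the table and none exceeded a mean of 0.0358 FPKM, and of 4 T cell markers, 3 were in the table and none exceeded 0.0555 FPKM. Of 6 macrophage markers, 4 were in the table. The defining genes Csf1r and Mrc1 were near 0, while Adgre1 and Fcgr1 were expressed.

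Adgre1, which encodes the surface antigen F4/80, was at 37.6, 18.1 and 40.1 FPKM in control and 72.1, 44.1 and 76.7 FPKM after I13. Its log2 fold change was 1.05 ± 0.34 (SE, limma adjusted p = 0.180), and with the replicate block Adgre1 rose with an adjusted p of 0.0308 from limma, with a range of 0.000842 to 0.417 over all alternatives, where its log2 fold change ran from 0.68 to 1.30. Fcgr1, the high-affinity receptor for IgG, was at 6.30, 3.66 and 4.12 FPKM in control and 9.31, 7.79 and 6.35 FPKM after I13, without overlap. Its log2 fold change was 0.75 ± 0.23 (SE, limma adjusted p = 0.165, with a range of 0.0136 to 0.409 over all alternatives), and Fcgr1 was called in 1 of them, voom with the replicate block. The macrophage markers summed to 44.0, 21.8 and 44.3 FPKM in control and 81.5, 52.0 and 83.1 FPKM after I13, and Adgre1 made up most of this sum in every sample. The pro-B markers summed to 52.1, 36.9 and 57.5 FPKM in control and 54.4, 56.1 and 66.0 FPKM after I13. Both sums were higher in the I13 sample of each pair, as were 24.1% of all genes tested, B2m, H2-Ob and Cd74 among them. Ptprc of the pro-B list did not overlap between the groups, with a log2 fold change of 0.44 ± 0.09 (SE, limma adjusted p = 0.109). Cd79a was lower after I13 in the pair of replicate 1, and Cd79b, with a log2 fold change of -0.15, in those of replicates 1 and 3. Over the alternatives the value for Cd79b ran from -0.43 to 0.07, so its sign turned. The part of these markers in the values of the class I and class II genes was not tested. In bulk RNA, a change in the number of cells of a type and a change in the RNA per cell cannot be told apart.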

How the data were processed

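mRNA of 3 control and 3 I13 samples was sequenced. RNA was extracted with Trizol, and the libraries were made with the TruSeq Stranded mRNA kit. The authors deposited FPKM per gene and sample, without pooling and with no scaling between samples stated. The submitters' processing notes name Trimmomatic, HISAT2, Cufflinks and HTSeq and the build hg38, which does not match the mouse gene identifiers. Versions, and the counting of fragments that match several genes, are not given in the sources used here. No coordinates or sequences are given. Columns were assigned by the labels, and 0 were left without a sample.

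Whole fragments and a whole length were recovered from the FPKM of 22413 of 22413 genes (100%, within 0.001 fragments), with 16762119 to 17722950 mapped fragments per library. Intervals on fragment counts cover counting error only. limma 3.58.1 (R 4.3.3) with a trend was fitted to log2(FPKM + 0.1) of the 12163 genes with a mean of at least 0.5 FPKM, with Benjamini-Hochberg adjustment over all of them. The thresholds for a call, an adjusted p of 0.05 and a log2 fold change of 0.58 in size, are those of the study. Few values per sample were compared by exact permutation tests.

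The replicate numbers of the labels were taken to pair the samples, since the deviations from the group means correlated at 0.15, 0.30 and 0.22 over genes for samples with the same number, and at -0.26 to 0.05 for others. Deviations within a group sum to 0, so these correlations are not independent and part of the contrast is built in. The labels state no pairing, and the block rests on these same data. The blocked value is given where it changed a call and beside some of the other genes named. The median log2 fold change of all genes was -0.0053 as deposited, 0.0067 with median-ratio scaling and 0.02 as TPM.

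The genes, the related pathway list and the marker lists were chosen with earlier results of these data known. The genes named are H2-K1, H2-D1, H2-T23, H2-M3, the H2-DM genes, H2-Eb1 and the 14 genes chosen singly, the 5 with the smallest p and the 5 with the largest change, the listed pathway genes called in either fit and the 2 highest and 2 lowest of these. Others were named after their values were seen. The alternatives were 2 other pseudocounts, other filters, scalings and eBayes settings, the block, and each sample left out. voom on the fragments, and leaving out each pair in the blocked fit, were added after seeing the data.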

Additional observations from a re-analysis of the deposited data

How the results depend on the processing

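Over 25 genes and 21 alternatives, 524 log2 fold changes were computed. Of these, 496 kept their direction and were, as with all samples and no block, not called, 8 were newly called and 20 reversed. Being called needs both the adjusted p and the fold change, so a fold change could pass 0.58 either way without a change of call. Added to limma on the FPKM, the block changed the calls of B2m and H2-Ob and of no other gene among the 25. Added to voom, it also changed those of H2-T23 and Cd74. The members called higher, 0 in the main comparison, were 2 with the replicate block, 4 with voom in addition, and 0 to 2 with the block and a pair left out. None was called lower under any alternative. The pathway list gave 0, or 3 with the block, 1 with voom, 5 when both were used, and 0 to 4 with the block and a pair left out. Of all genes, 4 were called higher and 1 lower. These counts became 2 and 0 under quantile normalization, median-ratio scaling or the pseudocount 0.01 alike, 166 and 64 with the block, 375 and 127 with voom in addition, and 0 to 0 with 1 sample left out. With the block and a pair left out they ran from 0 to 78 and from 0 to 5. The lower count was 3 without a filter and 3 without a trend. The cause of these differences was not tested. Leaving samples out changed both the number of samples and which samples were present, and the 2 cannot be told apart.

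The reversed values belonged to 8 genes, among them Ifi30, H2-T24 and Tapbp, whose log2 fold changes with all samples were 0.50, 0.42 and 0.22. Erap1 was at -0.0194 with quantile normalization. With 1 sample left out, the log2 fold change ran from -0.0839 to 0.116 for Psmb8, -0.0528 to 0.2396 for H2-Oa, -0.0435 to 0.7682 for H2-T24, -0.3494 to 0.0177 for H2-DMb2, -0.031 to 0.9225 for Ifi30, -0.1087 to 0.1041 for Erap1, -0.0627 to 0.4378 for Tapbp and -0.0358 to 0.119 for Psmb9. With the block and a pair left out it ran from -0.1035 to 0.1886 for Psmb8 (-0.0614 without replicate 3), -0.1557 to 0.2932 for H2-Oa, -0.3913 to 0.0582 for H2-DMb2, -0.097 to 0.1422 for Erap1 and -0.0045 to 0.1333 for Psmb9. The difference in immunoproteasome share was 1.88 percentage points as a mean of the subunit pairs. As a share of the summed FPKM it was 2.09 and ran from 1.18 to 3.14 with 1 sample left out. The 11 genes under the filter had a mean below 0.5 FPKM, and 5 of them had 10 or fewer fragments in all 6 libraries together.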

Other observations

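Outside the protein-coding genes, 7 further rows of the table carried an H2- symbol, all annotated as pseudogenes, and 2 of them reached a mean of 0.5 FPKM. H2-T10, a polymorphic pseudogene that is functional in some strains, was at 2.26, 2.55 and 2.79 FPKM in control and 2.56, 3.18 and 2.96 FPKM after I13, a log2 fold change of 0.19 ± 0.15 (SE, limma adjusted p = 0.535). H2-K2 was at 1.56, 0.433 and 0.811 FPKM in control and 0.920, 0.626 and 1.58 FPKM after I13, a log2 fold change of 0.21 ± 0.49 (SE, limma adjusted p = 0.849). H2-K2 was therefore listed at a level comparable to that of H2-K1. Gapdh was listed at 11.3 to 15.2 FPKM and Actb at 1264 to 1823 FPKM across the 6 samples. How fragments shared by near-identical genes and pseudogenes were counted is not stated, so the levels of H2-K1, H2-K2 and Gapdh beside those of other genes are uncertain.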
